A study of Homo sapiens with 12 samples.

Results

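The G1 cyclins, their kinases and their inhibitors were followed as 10 genes, CCND2, CCND3, CCNE1, CCNE2, CDK2, CDK4, CDK6, CDKN1A, CDKN1B and CDKN2A, each taken as the identifier of the deposited count table with that symbol. The table lists 57905 identifiers, 13832 of them had enough reads to be tested, and all 10 genes were among these. The 12 libraries, 3 in each of 4 groups, were all made from OCI-AML3 cells, an established line from human acute myeloid leukaemia. The drug arm set SA (500 µM, 6 days) against Vehicle (6 days). SA is not spelled out in the labels; work on heme often uses these letters for succinylacetone, an inhibitor of the enzyme ALAD. The guide arm set cells carrying a guide RNA to ALAS1 (sgALAS1) against cells carrying a guide named sgSCR, after 7 days of doxycycline in both, which switches the guides on. ALAS1 encodes the first enzyme of heme synthesis. The sources used here do not state whether these cells were a pool or a clone, or how Cas9 was supplied.

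A cell leaves G1 when D-type cyclins activate CDK4 and CDK6, which phosphorylate the retinoblastoma protein and release E2F transcription factors. E2F then drives cyclin E, which activates CDK2, together with the genes needed to copy DNA. Inhibitors of the CIP/KIP class (CDKN1A, CDKN1B) bind cyclin-CDK complexes, and those of the INK4 class (the p16 product of CDKN2A) bind CDK4 and CDK6. In myeloid cells these proteins set the balance between division and maturation, since maturing cells leave the cycle from G1.

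Libraries held 4658513 to 7339843 assigned reads. They were made with QuantSeq, which reads 1 short tag near the 3′ end of a polyadenylated transcript, so that counts do not grow with transcript length. Levels are given as CPM, read counts scaled to library size and here normalised between libraries. Levels of different genes are set beside each other on this scale. Whether tags were captured and assigned alike for all genes was not checked. Changes are given on the log2 scale beside a standard error (SE), and adjusted p-values are those of edgeR's quasi-likelihood test over all 13832 genes, with a threshold of 0.05. Separate cultures are not stated for the replicates, so a p-value covers the spread among these libraries alone. In these bulk samples, fewer cells that express a gene and less RNA of it per cell cannot be told apart. ALAS1 stood at 106, 102 and 111 CPM in SA libraries against 37.5, 36.4 and 31.1 CPM in Vehicle libraries, and at 26.2, 26.3 and 27.3 CPM in sgALAS1 libraries against 38.6, 41.9 and 37.4 CPM in sgSCR libraries; tags from the 3′ end do not show editing of the gene. The log2 fold changes of ALAS1 were 1.60 (SE 0.14, adjusted p = 1.36e-09) and -0.56 (SE 0.14, adjusted p = 0.00777; 0.0504 without sgSCR replicate 2). All 10 markers chosen for an acute myeloid line had enough reads to be tested, with 2245 to 2348 CPM in sum in SA libraries, 1240 to 1283 CPM in Vehicle libraries, 1830 to 2003 CPM in sgALAS1 libraries and 1054 to 1154 CPM in sgSCR libraries. LYZ, the lysozyme gene of monocytes and granulocytes, made up much of this sum, with 1455, 564, 1030 and 341 CPM as the means of these groups in the same order. The markers did not all go the way of the sum: 2 were higher and 1 was lower with SA, and 3 were higher and 1 was lower with sgALAS1. Of all tested genes, 4.83% were higher and 6.24% lower with SA, and 4.88% higher and 6.85% lower with sgALAS1. When 1 library was left out, 2 or 3 markers were higher with SA and 1 to 3 with sgALAS1. The marker lower in both arms was FLT3, a growth factor receptor of blood progenitors. FLT3 averaged 15.8 CPM in SA and 44.7 CPM in Vehicle, and 5.05 CPM in sgALAS1 and 38.4 CPM in sgSCR. It lies on chromosome 13, which had median changes of -0.39 with SA and -0.36 with sgALAS1 over 231 tested genes. The erythroid markers HBA1, HBB and HBG1 had 0 reads in all libraries. They belong to 7 erythroid and megakaryocyte markers, of which 0 had enough reads to be tested. The sum of these 7 was at most 2.39 CPM in any library, and not 0 in all of them.

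Of the 10 genes, 2 rose (CDKN1A and CCND3) and 1 fell (CCND2) with SA against Vehicle, where 11.1% of all tested genes passed the test (4.83% higher, 6.24% lower). With sgALAS1 against sgSCR, 2 rose (CDKN1A and CDKN2A) and 1 fell (CCND2), where 11.7% of all tested genes passed (4.88% higher, 6.85% lower). CCND2 fell and CDKN1A rose in both arms, which share no libraries. The other 7 genes in the drug arm lay between -0.27 and 0.38 on the log2 scale, and the other 7 in the guide arm between -0.35 and 0.21. The median change of the 10 genes was -0.10 with SA and 0.06 with sgALAS1, against -0.01 and -0.003 for all tested genes. The difference between the effects, SA minus sgALAS1, passed the test for 1 of the 10, CCND2, with 1.19% of all genes passing (0.759% higher, 0.427% lower). Groups did not overlap for 4 of the 10 with SA (CCND3, CDKN1A and CDKN2A higher, CCND2 lower), as for 27.4% of all tested genes (12.6% higher, 14.8% lower). They did not overlap for 5 of the 10 with sgALAS1 (CDKN1A and CDKN2A higher, CCND2, CCNE2 and CDK2 lower), as for 29.1% of all tested genes (13.6% higher, 15.5% lower).

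**Figure D1:**
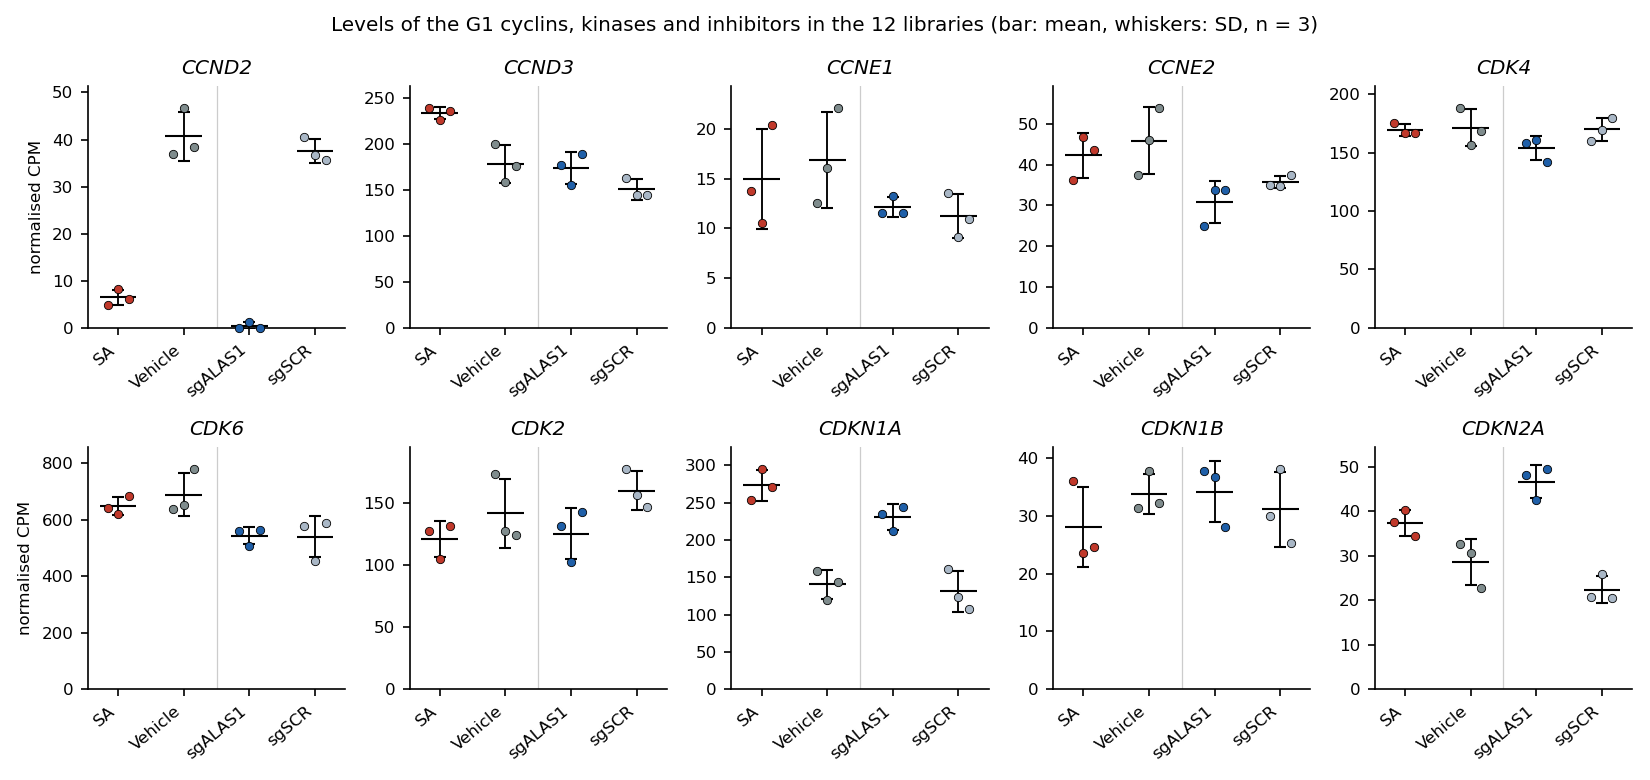
Normalised CPM (vertical axis, from 0, a different scale in each panel) of the 10 genes in each library of the 4 groups (horizontal axis); points are libraries, bars means and whiskers SD over 3 libraries. CCND2 is low in SA libraries and at or near 0 in sgALAS1 libraries, CDKN1A is high in both, and the 3 CDK genes overlap between SA and Vehicle libraries.

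**Figure D2:**
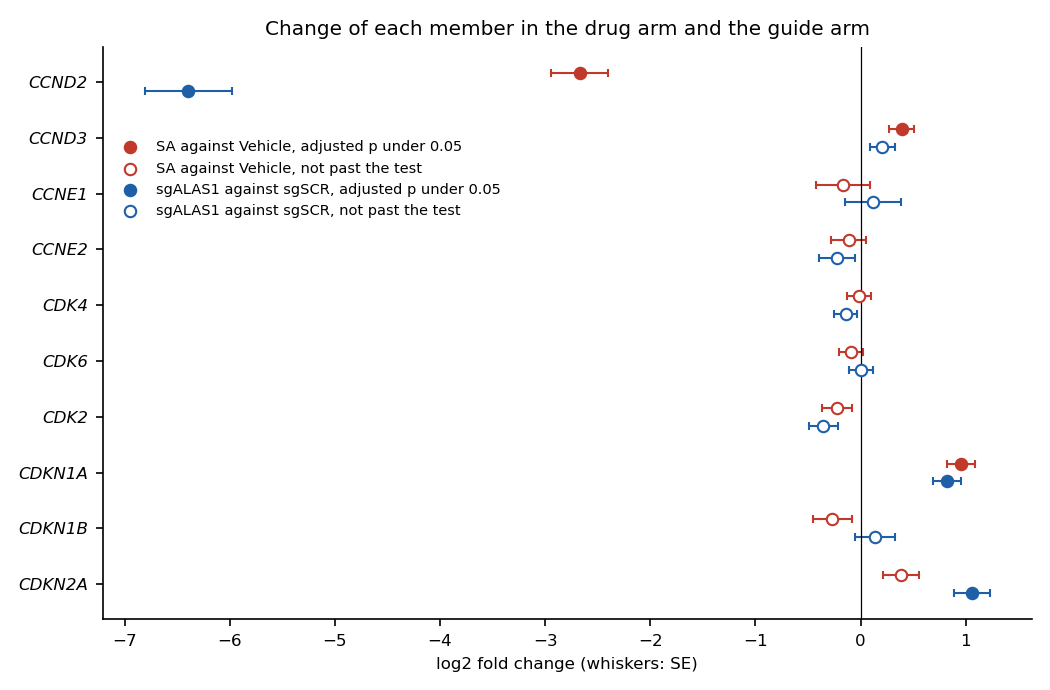
Log2 fold change (horizontal axis) with its SE for each of the 10 genes (vertical axis), red for SA against Vehicle and blue for sgALAS1 against sgSCR; filled points passed the test. CCND2 lies far to the left in both arms, at -2.67 and -6.40, and CDKN1A to the right, at 0.96 and 0.82.

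The D-type cyclins are the partners of CDK4 and CDK6 and the part of the machinery that growth signals act on. CCND2 (ENSG00000118971, chromosome 12), a D-type cyclin much used by blood cells, had 25, 41 and 38 reads in SA libraries against 268, 276 and 217 reads in Vehicle libraries. In CPM these are 4.86, 8.16 and 6.16 in SA libraries and 37.0, 46.7 and 38.4 in Vehicle libraries. The 2 groups do not overlap, and the log2 fold change was -2.67 (SE 0.27, adjusted p = 4.56e-08). By reads summed over the libraries, CCND2 was 6.36 times lower with SA (95% exact interval 5.17 to 7.88, counting error only).

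In the guide arm the fall of CCND2 was steeper. The gene had 0, 7 and 0 reads in sgALAS1 libraries against 203, 229 and 215 reads in sgSCR libraries. That is 0, 1.27 and 0 CPM in sgALAS1 libraries and 40.4, 36.8 and 35.5 CPM in sgSCR libraries, and 0 reads allow up to 0.463 and 0.665 CPM in sgALAS1 replicates 1 and 3 (3 reads a library). All 7 reads of the group came from replicate 2. The fitted log2 fold change was -6.40 (SE 0.41, adjusted p = 1.05e-12), and by summed reads CCND2 was 88.2 times lower in sgALAS1 (95% exact interval 42.5 to 220.2, counting error only). This interval leaves out the spread between libraries, such as that of the 0, 7 and 0 reads here. Without sgALAS1 replicate 2 all remaining reads of the group are 0 and the fitted value, -10.76, is no measure of size; without replicate 1 it was -5.72. The effect of SA was weaker than that of the guide by 3.73 on the log2 scale (SE 0.57, adjusted p = 1.72e-04), between 3.05 without sgALAS1 replicate 1 and 8.09 without sgALAS1 replicate 2.

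The order of the CCND2 levels was Vehicle, sgSCR, SA and sgALAS1. The 2 controls, at 37.6 ± 2.54 CPM in sgSCR and 40.7 ± 5.26 CPM in Vehicle (SD, n = 3 each), did not pass the test (-0.11, adjusted p = 0.899). The next steps down did, from the controls to SA (SA against sgSCR -2.55, adjusted p = 8.24e-08) and from SA to sgALAS1 (SA against sgALAS1 3.84, adjusted p = 8.57e-06).

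The genes whose levels over the 12 libraries were most like those of CCND2, by the root mean square difference of centred log2 CPM, were APP (0.50), ZNF521 (0.56) and NFATC2 (0.56), on chromosomes 21, 18 and 20; the median over all tested genes was 2.41. APP encodes the amyloid precursor protein, and ZNF521 and NFATC2 encode transcription factors. ZNF521 averaged 3.21 CPM in SA and 22.3 CPM in Vehicle, and 0 CPM in sgALAS1 and 22.8 CPM in sgSCR. CCND2 belongs to 29 autosomal genes, on 15 chromosomes, that averaged under 1 CPM in sgALAS1 and exceeded 10 CPM in every sgSCR library, a rule set after the values were seen. Of these 29, 28 also fell with SA, with a median log2 fold change of -2.06, against 6.24% of all tested genes that fell and a median of -0.01. That share covers genes at all levels. It was not taken for the 7779 autosomal genes above 10 CPM in every sgSCR library, from which the 29 come. The 29 include groups of identifiers that share reads, such as APOC2, APOC4 and their joint transcript, named here after their values were seen. Lymphoid markers were lower as well: the sum of 6 was 5.05 to 9.35 CPM in SA libraries against 21.2 to 24.1 CPM in Vehicle libraries, and 0.154 to 1.64 CPM in sgALAS1 libraries against 13.2 to 14.1 CPM in sgSCR libraries. Nearly all of it was CD3D and NKG7, while CD3E had 0 reads in all libraries and MS4A1 and CD79A averaged at most 0.386 CPM in any group. The part of these genes in the fall of CCND2 was not tested.

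**Figure D3:**
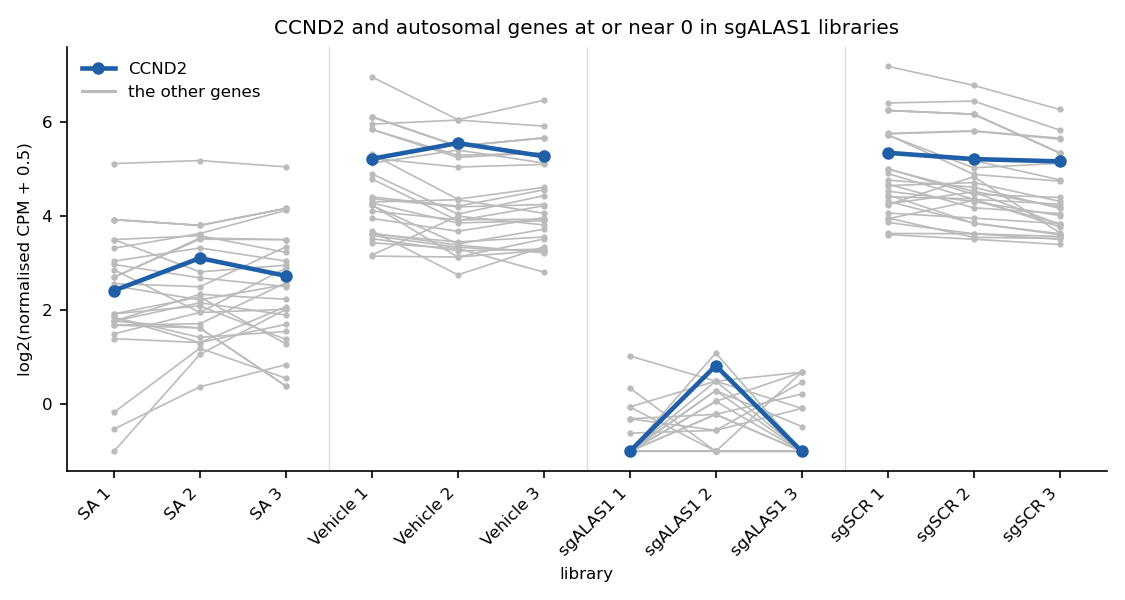
Log2(normalised CPM + 0.5) (vertical axis) of CCND2 (blue) and the other 28 autosomal genes under 1 CPM in sgALAS1 and above 10 CPM in each sgSCR library (grey), by library (horizontal axis); lines join libraries of 1 group. CCND2 runs within the grey genes, intermediate in SA libraries and lowest in sgALAS1 libraries.

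CCND3 (ENSG00000112576, chromosome 6), the D-type cyclin with the most reads here, went the other way with SA. It had 239, 226 and 236 CPM in SA libraries against 200.3, 158 and 176 CPM in Vehicle libraries. The groups do not overlap and the log2 fold change was 0.39 (SE 0.12, adjusted p = 0.0278). This call is a narrow one, as it was lost without SA replicate 1 (adjusted p = 0.103), SA replicate 3 (0.0793), Vehicle replicate 2 (0.158) or Vehicle replicate 3 (0.0724), and also with library totals alone (0.0578) or without a filter on low counts (0.0534). In the guide arm CCND3 had 177, 155 and 189 CPM in sgALAS1 libraries against 163, 144 and 144 CPM in sgSCR libraries (0.21, SE 0.12, adjusted p = 0.289). In the order SA, Vehicle, sgALAS1 and sgSCR, the step from Vehicle to SA passed the test and the lower ones did not. The levels most like it were those of SEC61A1, EIF4G1 and NAB2 (root mean square difference 0.07 to 0.11, median of all genes 0.42).

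The make-up of the D-type cyclin reads differed between the groups of both arms, with CCND1, the remaining family member, at 15.6 to 22.3 CPM as group means. CCND2 gave 2.48% ± 0.72 of the reads of the 3 D-type cyclins in SA libraries and 17.0% ± 2.84 in Vehicle libraries (SD, n = 3 each). It gave 0.245% ± 0.425 in sgALAS1 libraries and 18.5% ± 0.31 in sgSCR libraries. The groups do not overlap in either arm, and the exact permutation p, two-sided, was 0.1 in both, the smallest that 3 against 3 libraries can give. These shares do not depend on the scaling between libraries.

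CCNE1 and CCNE2 encode the E-type cyclins that activate CDK2 and are themselves E2F targets. CCNE1 (ENSG00000105173, chromosome 19) had 13.8, 10.5 and 20.4 CPM in SA libraries against 12.6, 16.1 and 22.1 CPM in Vehicle libraries, and 11.6, 13.3 and 11.5 CPM in sgALAS1 libraries against 13.5, 9.16 and 10.9 CPM in sgSCR libraries. The groups overlap in both arms (-0.16, SE 0.25, and 0.12, SE 0.27; adjusted p = 0.757 and 0.843). CCNE2 (ENSG00000175305, chromosome 8) had 36.3, 47.0 and 43.6 CPM in SA libraries against 37.5, 46.2 and 54.0 CPM in Vehicle libraries. It had 24.9, 33.8 and 33.7 CPM in sgALAS1 libraries against 35.1, 34.9 and 37.5 CPM in sgSCR libraries, where all sgALAS1 values lie below all sgSCR values, as they do for 15.5% of all tested genes. The change was -0.11 (SE 0.16) with SA and -0.22 (SE 0.17) with sgALAS1, neither past the test (adjusted p = 0.738 and 0.457). Chromosome 8, on which CCNE2 lies, had a median change, over its 471 tested genes, of -0.25 on the log2 scale with SA and -0.34 with sgALAS1. CCNE2 gave 74.1% ± 6.92 of E-type cyclin reads in SA, 73.3% ± 2.13 in Vehicle, 71.5% ± 3.16 in sgALAS1 and 76.3% ± 3.68 in sgSCR (exact permutation p = 0.9 in the drug arm and 0.2 in the guide arm, n = 3 each). Between neighbouring groups, in the order of the levels, no step of CCNE1 or CCNE2 passed the test.

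Of the 3 kinases, 0 passed the test in either arm by edgeR, DESeq2 or limma-voom; at an unadjusted p under 0.05 this was 0 with SA and 1 lower with sgALAS1, CDK2. CDK6 (ENSG00000105810, chromosome 7) is a partner of D-type cyclins and had the highest CPM of the 10 genes. It had 641, 620 and 684 CPM in SA libraries against 637, 653 and 779 CPM in Vehicle libraries. In the guide arm it had 560, 509 and 563 CPM in sgALAS1 libraries against 578, 455 and 589 CPM in sgSCR libraries. CDK6 was at -0.09 on the log2 scale with SA (SE 0.11) and at 0.01 with sgALAS1 (SE 0.11). Both arms' groups overlap, and the 2 guide groups lay below the 2 drug groups, with sgALAS1 against Vehicle at -0.34 (adjusted p = 0.0401) and sgSCR against Vehicle at -0.35 (adjusted p = 0.132). CDK4 (ENSG00000135446, chromosome 12), the other partner of D-type cyclins, had 175, 167 and 167 CPM in SA libraries against 188, 157 and 169 CPM in Vehicle libraries. It had 158, 161 and 142 CPM in sgALAS1 libraries against 160, 170 and 180.0 CPM in sgSCR libraries. Its changes were -0.01 (SE 0.11) and -0.14 (SE 0.11), with adjusted p = 0.960 and 0.484. CDK6 gave 79.2% ± 0.998 of the reads of the pair in SA, 80.0% ± 2.57 in Vehicle, 77.9% ± 1.97 in sgALAS1 and 75.9% ± 2.80 in sgSCR, with exact permutation p = 0.6 and 0.5 in the 2 arms (n = 3 each).

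CDK4 is a known target of MYC, which binds DNA with its partner MAX at the E-box CACGTG, a motif that reads the same on both strands. The 250 bases before the CDK4 start in RefSeq (GRCh38.p14, minus strand, chr12:57752311-57752560) are shown because they hold 3 E-boxes, in capitals, where 6.35% of 34961 promoters of this length hold any.
CDK4 promoter: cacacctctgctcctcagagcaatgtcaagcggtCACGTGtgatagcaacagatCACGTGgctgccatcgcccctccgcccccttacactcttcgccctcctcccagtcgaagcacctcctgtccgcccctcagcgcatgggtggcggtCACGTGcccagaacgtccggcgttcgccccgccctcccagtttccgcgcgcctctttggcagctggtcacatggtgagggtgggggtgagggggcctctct
MYC fell in both arms, at -1.09 with SA (SE 0.15, adjusted p = 8.66e-06) and -0.92 with sgALAS1 (SE 0.15, adjusted p = 6.75e-05), and the CDK4 values above stand beside that fall without passing the test. A match to the motif does not show binding.

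**Figure D4:**
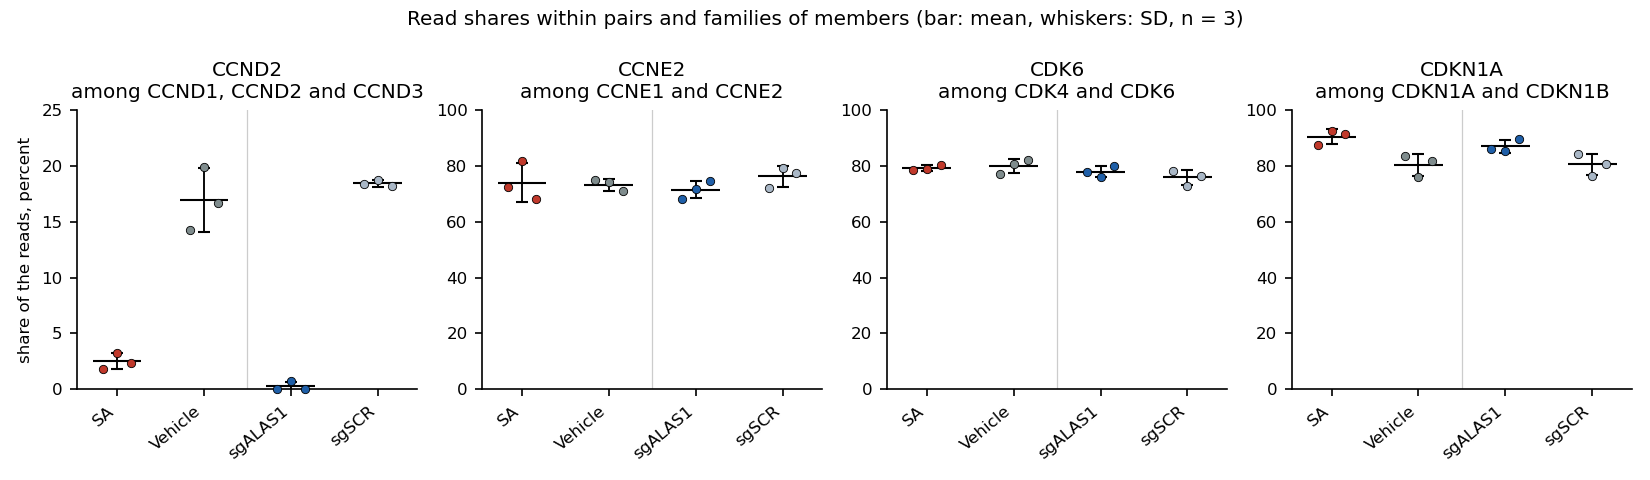
Share of reads in percent (vertical axis, from 0, to 25 in the first panel and 100 in the others) of CCND2 among the D-type cyclins, CCNE2 among the E-type cyclins, CDK6 among CDK4 and CDK6, and CDKN1A among CDKN1A and CDKN1B; points are libraries, bars means and whiskers SD over 3 libraries. The CCND2 share is 2.48% in SA and 0.245% in sgALAS1, against 17.0% in Vehicle and 18.5% in sgSCR, while the CCNE2 and CDK6 shares overlap between groups.

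CDK2 (ENSG00000123374, chromosome 12), the kinase of cyclin E, had 128, 105 and 131 CPM in SA libraries against 174, 128 and 124 CPM in Vehicle libraries. It had 132, 102 and 143 CPM in sgALAS1 libraries against 177, 157 and 147 CPM in sgSCR libraries. The groups overlap in the drug arm (-0.23, SE 0.14, adjusted p = 0.339). In the guide arm every sgALAS1 value lies below every sgSCR value (-0.35, SE 0.14), without passing the test (adjusted p = 0.106).

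CDKN1A (ENSG00000124762, chromosome 6) encodes p21, the CIP/KIP inhibitor that p53 induces and that holds CDK2 inactive. It had 254, 295 and 271 CPM in SA libraries against 159, 120.0 and 143 CPM in Vehicle libraries. It had 236, 212 and 245 CPM in sgALAS1 libraries against 162, 124 and 107 CPM in sgSCR libraries. Every treated library lay above every control library, and CDKN1A rose by 0.96 on the log2 scale with SA (SE 0.13, adjusted p = 9.14e-06) and by 0.82 with sgALAS1 (SE 0.13, adjusted p = 6.70e-05). The rises differed by 0.14 (SE 0.19, adjusted p = 0.844). In the order SA, sgALAS1, Vehicle and sgSCR, the step from Vehicle to sgALAS1 passed the test (0.71, adjusted p = 3.09e-04), and the steps from sgALAS1 to SA (adjusted p = 0.342) and from sgSCR to Vehicle (0.820) did not.

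The CDKN1A promoter carries GC boxes (GGGCGG), at which SP1-type factors are known to bind. The 250 bases before its RefSeq start (GRCh38.p14, plus strand, chr6:36678464-36678713) hold 4 of them, in capitals; the last pair share a base. At least 1 match, on either strand, is found in 42.7% of the promoters. The sites at which p53 is known to bind lie further upstream, outside this stretch. GC boxes do not set CDKN1A apart from the other promoters read. CCNE1 holds 7, CDK4 holds 3 and CDKN1B holds 1. CCND3 holds 5, 2 and 0 at its 3 starts, and CDK6 holds 3 and 0 at its 2. CCNE1, CDK4 and CDK6 passed the test in neither arm. E2F sites (TTTCGCGC or TTTGGCGC), found in 0.973% of promoters, had 0 matches in each promoter read, CCNE1 included. The promoter of CCNE2 was not read, and other forms of the site or sites after the start were not searched.
CDKN1A promoter: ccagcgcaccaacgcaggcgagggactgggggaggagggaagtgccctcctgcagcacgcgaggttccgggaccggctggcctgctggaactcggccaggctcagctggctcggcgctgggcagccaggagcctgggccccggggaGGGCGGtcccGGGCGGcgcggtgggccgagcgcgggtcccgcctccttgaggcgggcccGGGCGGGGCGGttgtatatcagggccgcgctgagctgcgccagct

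CDKN1B (ENSG00000111276, chromosome 12) encodes p27, the inhibitor of the same class that is controlled largely through its breakdown. Its levels overlapped in both arms. It had 36.1, 23.7 and 24.6 CPM in SA libraries against 31.4, 37.9 and 32.2 CPM in Vehicle libraries, and 37.8, 36.7 and 28.1 CPM in sgALAS1 libraries against 30.1, 38.1 and 25.3 CPM in sgSCR libraries. The changes were -0.27 (SE 0.19, adjusted p = 0.416) and 0.14 (SE 0.19, adjusted p = 0.716). CDKN1A gave 90.6% ± 2.67 of the reads of the pair in SA and 80.4% ± 3.90 in Vehicle, and 87.0% ± 2.35 in sgALAS1 and 80.6% ± 3.93 in sgSCR (SD, n = 3 each). The groups do not overlap in either arm (exact permutation p = 0.1, the smallest possible).

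The genes most like CDKN1A over the 12 libraries were AP5B1, RGS14 and S100A6 (root mean square difference 0.14 to 0.15, median of all genes 0.59). AP5B1 encodes an adaptor protein subunit, RGS14 a regulator of G-protein signalling and S100A6 a calcium-binding protein. S100A6 averaged 361 ± 17.7 CPM in SA and 200.1 ± 16.9 CPM in Vehicle, and 361 ± 13.7 CPM in sgALAS1 and 195 ± 9.83 CPM in sgSCR (SD, n = 3 each).

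CDKN2A (ENSG00000147889, chromosome 9) rose in the guide arm. It had 48.2, 42.5 and 49.4 CPM in sgALAS1 libraries against 20.7, 25.9 and 20.5 CPM in sgSCR libraries, groups that do not overlap (1.06, SE 0.17, adjusted p = 4.82e-05). In the drug arm it had 37.5, 40.4 and 34.5 CPM in SA libraries against 32.6, 30.6 and 22.7 CPM in Vehicle libraries. These do not overlap either, as for 12.6% of all tested genes in this direction, but the change of 0.38 (SE 0.17) did not pass the test (adjusted p = 0.148). The effects differed by -0.68 (SE 0.24), which did not pass the test of the difference (adjusted p = 0.210). In SA the level did not pass against sgALAS1 either (-0.32, adjusted p = 0.315). The sgSCR level of 22.4 ± 3.04 CPM was 0.36 below the Vehicle level of 28.6 ± 5.25 CPM on the log2 scale (adjusted p = 0.387), and SA set against sgSCR was at 0.74 (adjusted p = 0.00373). In the order sgALAS1, SA, Vehicle and sgSCR, no step between neighbours passed the test. The genes with the most similar levels were PLAC8, FOSL2 and FERMT3 (root mean square difference 0.15 to 0.16, median of all genes 0.54).

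CDKN2A has 2 start sites that feed different proteins, p16 from the nearer first exon and ARF, which stabilises p53, from the further one. Both transcripts share their 3′ end, so 3′ tags cannot tell them apart, and the 250 bases before each start (RefSeq, GRCh38.p14, minus strand) are shown for the difference between them. The further start (chr9:21995325-21995574) holds 0 GC boxes and the nearer one (chr9:21974858-21975107) holds 1, in capitals.
CDKN2A further start: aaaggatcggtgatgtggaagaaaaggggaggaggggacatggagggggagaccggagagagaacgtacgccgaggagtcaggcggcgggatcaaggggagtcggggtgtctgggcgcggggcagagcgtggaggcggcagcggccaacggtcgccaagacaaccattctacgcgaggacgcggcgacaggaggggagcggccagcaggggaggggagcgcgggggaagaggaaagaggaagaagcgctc
CDKN2A nearer start: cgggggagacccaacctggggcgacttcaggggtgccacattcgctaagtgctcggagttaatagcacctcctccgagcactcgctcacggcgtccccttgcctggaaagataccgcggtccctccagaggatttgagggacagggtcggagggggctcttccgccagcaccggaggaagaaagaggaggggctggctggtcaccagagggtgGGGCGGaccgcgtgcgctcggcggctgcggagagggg
The sources used here do not state the strand setting of the counting. CDKN2B-AS1, the antisense RNA that reaches into this locus, had 0 to 5 reads a library, and CCND2-AS1, which overlaps CCND2, had 0 reads in all libraries.

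Between the control groups, sgSCR against Vehicle, 0 of the 10 genes passed edgeR's test or DESeq2 or limma-voom, where 1.43% of all tested genes passed edgeR (0.47% higher, 0.962% lower). These groups did not overlap for 1 of the 10, CDK6, lower in sgSCR, as for 17.1% of all tested genes (8.42% higher, 8.73% lower). At an unadjusted p under 0.05, 5 were lower in sgSCR, CCND3, CCNE1, CCNE2, CDK6 and CDKN2A, with log2 fold changes of -0.25, -0.59, -0.35, -0.35 and -0.36. The share of all tested genes at this unadjusted threshold was not taken, so the 5 cannot be set against a background. The guide, doxycycline and the days of treatment differ between these groups and cannot be told apart. The same holds for the crossed pairs. SA against sgALAS1 had 2 of the 10 higher, CCND2 and CCND3, where 3.94% of all genes passed (2.26% higher, 1.68% lower). SA against sgSCR had CCND3, CDKN1A and CDKN2A higher and CCND2 lower, where 13.6% passed (5.91% higher, 7.65% lower). sgALAS1 against Vehicle had CDKN1A and CDKN2A higher and CCND2, CCNE2 and CDK6 lower, where 14.9% passed (6.49% higher, 8.4% lower).

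Among the targets of E2F that copy DNA, 16 of 31 tested genes fell with SA and 13 of 31 fell with sgALAS1, against 6.24% and 6.85% of all tested genes that fell. None rose past the test in either arm by edgeR, DESeq2 or limma-voom, nor at an unadjusted p under 0.05. The medians were -0.48 with SA and -0.44 with sgALAS1. MCM3, a subunit of the replicative helicase, was at -1.02 with SA (SE 0.17, adjusted p = 8.54e-05) and -0.89 with sgALAS1 (SE 0.17, adjusted p = 4.03e-04). TYMS, which makes thymidylate, was at -0.77 with SA (SE 0.15) and -1.06 with sgALAS1 (SE 0.16). PRIM1, the primase subunit, fell by 0.95 with SA, MCM2 fell by 0.67 with sgALAS1, and MCM4, on chromosome 8, fell by 0.60 with SA and by 0.67 with sgALAS1. The arms had 10 falling genes in common, 62.5% of those in the drug arm and 76.9% of those in the guide arm. The count with SA was 10 without SA replicate 1 and 11 without SA replicate 3 or Vehicle replicate 2, and with sgALAS1 it was 9 to 13 when 1 library was left out. The effects of SA and sgALAS1 differed for 0 of the 31 by edgeR, DESeq2 or limma-voom, and for 1, lower, at an unadjusted p under 0.05.

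**Figure D5:**
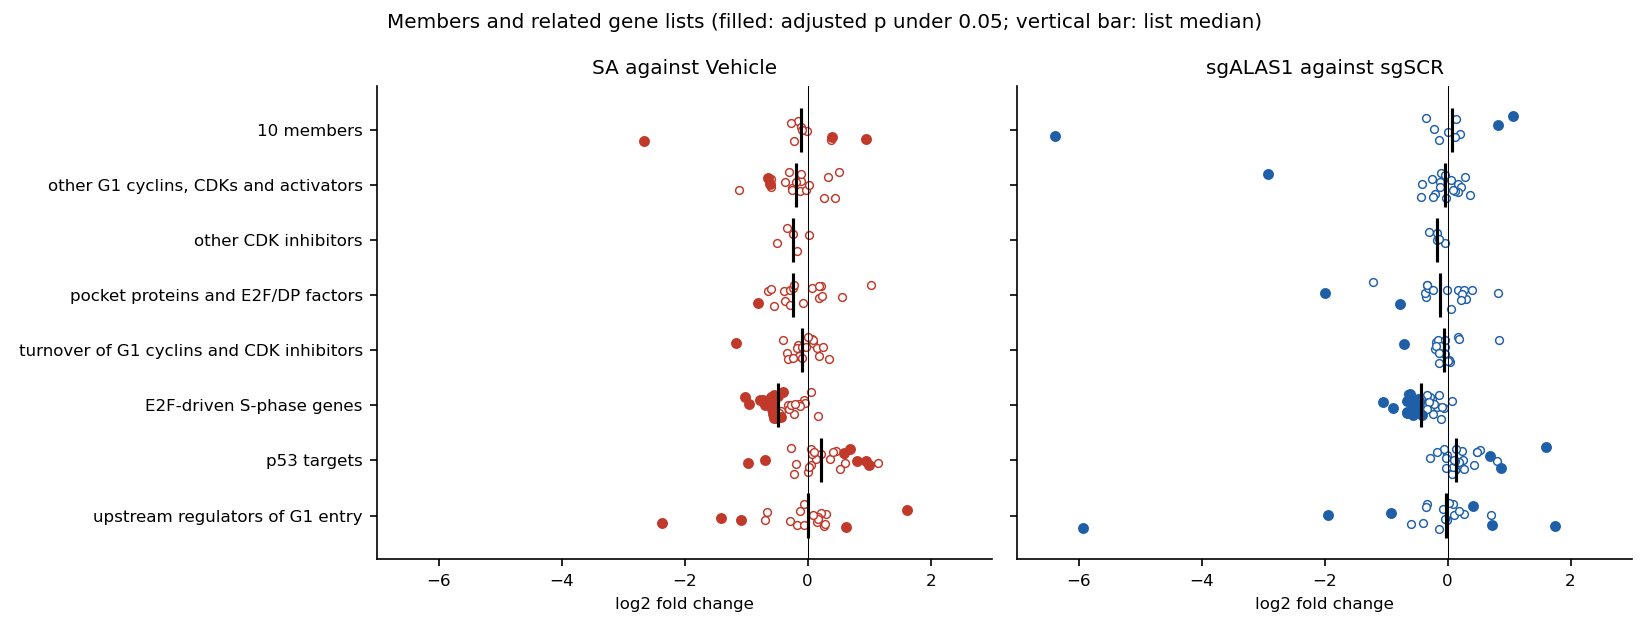
Log2 fold change (horizontal axis) of the tested genes of the 10 members and of 7 related lists (vertical axis), SA against Vehicle on the left and sgALAS1 against sgSCR on the right; filled points passed the test and black bars are list medians. The medians of the E2F-driven S-phase genes lie to the left of 0 in both arms, at -0.48 and -0.44.

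Of the retinoblastoma family, E2F and DP genes, 1 of 18 fell with SA and 2 of 18 fell with sgALAS1, where 6.24% and 6.85% of all tested genes fell, so that both counts are near this background. RB1, the brake that CDK4 and CDK6 release, was at 36.9 CPM in SA and 64.7 CPM in Vehicle (-0.81, SE 0.16, adjusted p = 9.80e-04), and at 34.0 CPM in sgALAS1 and 58.5 CPM in sgSCR (-0.77, SE 0.16, adjusted p = 0.00147). Chromosome 13, which holds RB1, had median changes of -0.39 with SA and -0.36 with sgALAS1 over 231 tested genes. E2F7, a repressive E2F, averaged 1.496 CPM in sgALAS1 and 5.93 CPM in sgSCR (-1.99, SE 0.50, adjusted p = 0.00689). The count with SA was 2 without SA replicate 1, with a replicate block or with the drug arm fitted alone, and 3 with library totals alone.

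The next 3 lists are to be read against the same background, where 6.24% of all tested genes fell with SA and 6.85% with sgALAS1. Among 19 other cyclins, CDKs and activators, CCNH, the cyclin of the CDK-activating kinase, fell by 0.64 with SA (adjusted p = 0.00763; 0.0735 without SA replicate 3) and CCNC, a Mediator cyclin, by 0.62 (adjusted p = 0.0154; 0.106, 0.0749 and 0.0765 without SA replicate 1, SA replicate 3 or Vehicle replicate 2). The number of these 19 that fell with SA was 0 without SA replicate 3, 1 without SA replicate 1 or Vehicle replicate 2, and 4 without Vehicle replicate 1. In the guide arm CCNA1, an A-type cyclin on chromosome 13, was the 1 that fell, to 1.21 CPM in sgALAS1 against 9.39 CPM in sgSCR (-2.93, SE 0.42, adjusted p = 8.09e-06). Of 5 tested inhibitors outside the members, 0 passed in either arm by edgeR, DESeq2 or limma-voom. At an unadjusted p under 0.05 these were 3 lower with SA and 0 with sgALAS1, counts for which no share of all genes was taken. CDKN2B had too few reads to be tested. Of 19 genes that break down G1 cyclins and inhibitors, FBXO4, an F-box protein known for its action on cyclin D1, was the 1 that fell in each arm, by 1.17 with SA (adjusted p = 2.36e-05) and by 0.70 with sgALAS1 (adjusted p = 0.00635; 0.0572 without sgSCR replicate 2).

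CDKN1A was set beside 25 other tested p53 targets. With SA, 5 rose and 2 fell, where 4.83% of all tested genes rose and 6.24% fell. With sgALAS1, where 4.88% rose and 6.85% fell, 3 rose and 0 fell by edgeR, DESeq2 and limma-voom, and 0 were lower at an unadjusted p under 0.05. The medians were 0.21 and 0.14, and without SA replicate 1 the counts with SA were 3 and 1. MDM2, which degrades p53, rose by 0.59 with SA (SE 0.14) and 0.70 with sgALAS1 (SE 0.14). BTG2, an antiproliferative gene, was at 1.004 and 1.60, and PHLDA3, a brake on AKT, at 0.94 and 0.88, so that these 3 rose in both arms. BTG2 lost its call with SA without SA replicate 1 (adjusted p = 0.0630), SA replicate 3 (0.0582) or Vehicle replicate 1 (0.0606), and PHLDA3 without SA replicate 1 (0.0534). RPS27L and ZMAT3 also rose with SA (0.81 and 0.68), while SESN2, a stress-induced sestrin, fell (-0.96). ZMAT3 averaged 52.6 CPM in SA and 32.8 CPM in Vehicle, and 53.7 CPM in sgALAS1 and 49.4 CPM in sgSCR. SESN2 had 74.0, 65.3 and 74.6 CPM in SA libraries against 176, 168 and 72.6 CPM in Vehicle libraries. Its groups overlap, as Vehicle replicate 3 lies within the SA values, and SESN2 averaged 60.8 CPM in sgALAS1 and 63.3 CPM in sgSCR. PMAIP1, which encodes the cell death protein NOXA, fell too (-0.69) and is named after its value was seen. Its call was lost without SA replicate 1 (0.0595), SA replicate 3 (0.0780) or Vehicle replicate 2 (0.134). PMAIP1 averaged 39.6 CPM in SA, 63.7 CPM in Vehicle, 44.4 CPM in sgALAS1 and 37.2 CPM in sgSCR. For ZMAT3, SESN2 and PMAIP1, the SA mean lay nearer to that of sgSCR than to that of Vehicle. In sgSCR against Vehicle, 1 of the 25 was higher and 2 were lower, where 0.47% and 0.962% of all tested genes were.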

How the data were processed

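The labels' protocols describe 3′ QuantSeq libraries of polyA RNA, read from 1 end. Tools named, per the submitters' processing notes, were bcl2fastq 2.17.1.14, cutadapt 1.14, HISAT2 2.0.4 with hg19, featureCounts of Subread 2.0.0, edgeR 3.34.0 and limma 3.48.3. No source used here states the annotation release, the strand setting or the handling of multi-mapping reads. The authors deposited raw read counts per Ensembl identifier. Columns were matched to samples by the library names in the labels. Names and chromosomes came from a current gene table for 51996 identifiers and from GENCODE 29 for 342; 5567 had none. Promoters came from RefSeq (GRCh38.p14) and matched 8 of the 10 genes, of which those of 7 were read and that of CCNE2 was not.

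All 12 libraries were fitted together by group in R 4.3.3 with edgeR 4.0.16 (filterByExpr, TMM, quasi-likelihood F-test, two-sided; Benjamini-Hochberg over 13832 genes, threshold 0.05); the biological coefficient of variation was 16.4%. SE is the size of the log2 fold change divided by the square root of F. DESeq2 1.42.0, limma-voom (limma 3.58.1), other scalings and filters, single comparisons alone, a replicate block and leaving out each library were alternatives. Shares used raw reads and exact permutation tests. Likeness used log2(CPM + 0.5). The fit was tested on simulated counts. Shares of all tested genes at an unadjusted p under 0.05 were not taken, so counts at that threshold have no background. The 10 genes and the lists were chosen with earlier results of these data known, so counts over them are descriptions. Named genes are the 10, up to 4 per list and arm with the smallest p among those called (all, where a list has 5 or fewer), and the 3 nearest to each called member; others are said to be named after their values were seen.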

Additional observations from a re-analysis of the deposited data

Results flagged for a closer look

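The effects of SA and of sgALAS1 differed by a test of the difference itself for CCND2, with an SA minus sgALAS1 difference of 3.73 on the log2 scale (adjusted p = 1.72e-04); both effects were falls. They differed likewise for CCNA1, which was at 6.83 CPM in SA and 10.3 CPM in Vehicle and at 1.21 CPM in sgALAS1 and 9.39 CPM in sgSCR, a difference of 2.34 (SE 0.54, adjusted p = 0.0204). This call was lost without SA replicate 1 (0.0750), Vehicle replicate 2 (0.0706), sgALAS1 replicate 1 (0.110), sgALAS1 replicate 3 (0.0554) or sgSCR replicate 2 (0.0507). For ALAS1, which rose with SA and fell with its own guide, the difference was 2.16 (SE 0.20, adjusted p = 1.14e-08).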

How the results depend on the processing

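The falls of CCND2 and rises of CDKN1A in both arms, and the rise of CDKN2A with sgALAS1, passed the test under all alternatives run. CCND3 with SA lost its call in 6 of 15. Signs turned, always without a call, for CDK4 with SA without mitochondrial transcripts and the most abundant identifier (0.0015) and for members near 0 when 1 library was left out: with SA, CCNE1 (-0.463 to 0.0762), CCNE2 (-0.24 to 0.0223), CDK4 (-0.0761 to 0.0628) and CDK6 (-0.1403 to 0.0112); with sgALAS1, CDK6 (-0.093 to 0.0753); and for the difference, CCNE2 (-0.0204 to 0.252), CDK6 (-0.161 to 0.0126) and CDKN1A (-0.0425 to 0.265). Over all genes, SA calls numbered 1531, and 954 to 1595 without 1 library; those of the difference 164, 109 to 340 without 1 library and 277 with no filter on low counts. Members called were 1 or 2 of 10 for SA against sgALAS1 and 3 to 5 for sgALAS1 against Vehicle without 1 library. The cause was not tested. Libraries that share a replicate number were not more alike (residual correlations -0.28 to 0.28, others -0.51 to 0.41), so no block was used; with a replicate block 1704 genes were called for SA and 1796 for sgALAS1, and CDK2 passed with sgALAS1 (-0.36, adjusted p = 0.0481). Depth limits CCND2 in sgALAS1, with 7 reads in all, and CDKN2B. With sgSCR minima of 5 or 20 CPM in place of 10, chosen after seeing the data, 51 or 12 autosomal genes were near 0 in sgALAS1 and 44 or 12 of them fell with SA. Of all tested genes, 6.24% fell with SA. That share was not taken for the 9408 or 5658 autosomal genes above these minima. The 12 are among the 29 and the 29 among the 51, so these counts are not separate checks.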

Other observations

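Of 20 tested regulators that act before G1 entry, 2 rose and 3 fell with SA, where 4.83% of all tested genes rose and 6.24% fell. With sgALAS1 3 rose and 3 fell, where 4.88% rose and 6.85% fell. JUN, an immediate early transcription factor, rose by 1.61 with SA (SE 0.17, adjusted p = 9.94e-08) and by 1.74 with sgALAS1 (SE 0.18, adjusted p = 2.08e-08). BMI1, a Polycomb protein known to repress CDKN2A, fell by 1.41 with SA (SE 0.18, adjusted p = 2.00e-06) and by 1.95 with sgALAS1 (SE 0.18, adjusted p = 3.24e-09). STAT5A, a transcription factor of cytokine receptors, averaged 1.17 CPM in SA and 6.13 CPM in Vehicle (-2.37, adjusted p = 0.00151), and 0.134 CPM in sgALAS1 and 8.78 CPM in sgSCR (-5.93, adjusted p = 1.92e-07). FOS rose by 0.63 with SA and 0.72 with sgALAS1, calls that were lost without some single libraries in each arm (adjusted p up to 0.215 and 0.190). Those that rose were 1 or 2 in both arms when 1 library was left out, and 1 with SA with library totals alone.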
